A study of Homo sapiens with 12 samples.

Results

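The mitochondrial ribosomal protein genes were taken as every protein-coding gene of the deposited count table whose symbol starts with MRPL or MRPS and a number. The table held 78 such genes among 58735, of which 49 carried a large-subunit symbol (MRPL) and 29 a small-subunit symbol (MRPS). They were spread over 21 chromosomes, with at most 8 on any 1 of them. A further 77 features with such symbols, 75 pseudogenes and 2 antisense genes, were not protein-coding and were left out.

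Polyadenylated RNA of HEK293T, an established line derived from human embryonic kidney, was sequenced in 4 groups with 3 libraries in each. Cells of the DMSO group had vehicle alone, and the CEP group received 25 µM of the clickable electrophilic purine, a cysteine-reactive probe that enters RNA-binding protein sites, for 1 h. The 4SU group received 100 µM 4-thiouridine, a photoreactive nucleoside that cells build into new RNA, for 16 h, and the CEP+4SU group received both. Per the labels every group went through 1 protocol with ultraviolet light, so exposure to that light is shared by all 4 groups, and all came from a single cell line. In these bulk samples fewer cells of a type and less RNA per cell cannot be told apart.

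Mitochondria keep a small genome whose messages encode core subunits of the respiratory chain, and they translate these on ribosomes of their own. The RNA of these ribosomes is made inside the organelle, while the proteins are encoded in the nucleus, translated in the cytoplasm and imported. The large subunit joins amino acids into the chain and carries the peptide exit tunnel, and the small subunit binds the message and decodes it. Symbols do not always match the place of the protein: MRPS18A and MRPS30 sit in the large subunit, and MRPS36 is a part of the 2-oxoglutarate dehydrogenase complex.

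Each library held between 16569114 and 24644734 counts. CEP replicate 2 and CEP+4SU replicate 2 stood apart, with 22230 and 22627 genes detected against 24376 to 25869 in the other 10 libraries. Of 11 marker genes of HEK293T cells, 10 were at 1 FPKM (fragments per gene length and library depth) or more, and their summed level was 193 to 206 FPKM in every library. The summed level was at most 3.27 FPKM for melanoma markers (TYR at 0), 3.16 for blood markers (CD3E and HBB at 0), 5.19 for fibroblast markers, 0.129 for endothelial markers and 0.309 for liver markers. Of the 4 melanoma markers, DCT was higher in CEP+4SU than in DMSO (log2 fold change 1.23 ± 0.30 (SE), edgeR adjusted p = 0.0455), at 32 to 134 counts per library. Without CEP+4SU replicate 2 that value was 0.87 (adjusted p = 0.28), and its part in the results below was not tested.

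The promoters of the members are shown first, because the genes are spread over 21 chromosomes and are measured here as 1 group. Some members are neighbours: the windows of MRPL46 (chr15:88467339-88467638) and MRPS11 (chr15:88467458-88467757), on opposite strands, overlap. RefSeq start sites on GRCh38.p14 were at hand for 69 of the 78, as windows of 250 bases before to 50 after the start, and MRPL10, MRPL13, MRPL15, MRPL2, MRPL21, MRPL23, MRPL35, MRPS28 and MRPS36 had no entry. The letters CCGGAAG, which ETS-family transcription factors bind, were present on either strand in 29 of the 69 windows (42%) and in 10.3% of all 35116 promoters of the same length. They were in 17 of 42 large-subunit windows (40.5%) and 12 of 27 small-subunit windows (44.4%). The YY1 motif was in 10 windows (14.5% against 0.849% of all promoters), the NRF1 motif in 1 (1.45% against 1.24%), and TATAAA in 2 (2.9% against 11.5%). None of these motifs forms part of another. The 35116 promoters were not filtered by gene type or by level in these cells, whereas the members are all protein-coding. These are matches of letters and not shown sites. Upstream stretches outside annotated exons follow, 5′ to 3′ on the strand of the gene, with CCGGAAG or its reverse complement in capitals. They cover MRPL37 and MRPL3, the 2 highest large-subunit members, MRPL20, which had the smallest p among large-subunit members with 4SU, MRPS10, the higher-valued small-subunit member with the smallest p under CEP, and MRPS22, where 2 matches face each other.
MRPL37: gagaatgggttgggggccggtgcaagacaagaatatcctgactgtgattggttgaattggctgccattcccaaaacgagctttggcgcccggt
MRPL3: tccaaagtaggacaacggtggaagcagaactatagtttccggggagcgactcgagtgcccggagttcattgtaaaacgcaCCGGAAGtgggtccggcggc
MRPL20: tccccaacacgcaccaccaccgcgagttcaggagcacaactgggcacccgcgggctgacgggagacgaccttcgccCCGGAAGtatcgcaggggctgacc
MRPS10: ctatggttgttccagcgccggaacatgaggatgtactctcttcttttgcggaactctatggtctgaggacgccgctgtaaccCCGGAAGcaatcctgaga
MRPS22: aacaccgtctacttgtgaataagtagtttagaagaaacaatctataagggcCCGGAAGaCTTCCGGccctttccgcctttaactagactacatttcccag
MRPL37 held no match in its stretch, at chr1:54200074-54200166 on the plus strand. The MRPL3 stretch lies at chr3:131502984-131503083 on the minus strand, with its match starting 32 bases before the start site. The MRPL20 stretch is chr1:1407314-1407413 on the minus strand and its match starts 44 bases before the start site. The MRPS10 stretch is chr6:42217866-42217965, also minus, with the match 22 bases before the start site. In MRPS22, at chr3:139343856-139343955 on the plus strand, a forward match at 87 and a reverse match at 79 bases before the start site lie 1 base apart.

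All 78 members were among the 17729 genes kept by the filter on low counts. Per length, the level of most members was similar. The median of the mean FPKM over 12 libraries was 26.0 for the large subunit and 22.3 for the small subunit, and 60 of 78 members lay between 10 and 60 FPKM (40 large, 20 small). MRPS34, a small-subunit protein with no bacterial counterpart, was the highest member on average, at 156 FPKM, and the highest in 11 of 12 libraries. MRPL37, a large-subunit protein, followed at 125 FPKM and was highest in the remaining library. MRPS26 stood at 88.1 FPKM and MRPL3, a core protein of the peptidyl transferase region, at 86.3 FPKM. Over the 12 libraries of all groups MRPS26 ranged from 67.2 to 105 FPKM and MRPL3 from 81.5 to 91.9, so their ranges overlapped. The difference between these 2 levels was not tested.

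At the low end stood MRPS24 at 0.157 FPKM, MRPL38 at 1.13, MRPL46 at 1.74, MRPL53 at 4.69, MRPS18C at 4.83, MRPS17 at 5.16, MRPS6 at 5.66 and MRPS28 at 7.20. MRPS24 was the lowest member in all 12 libraries, with 0 to 15 counts in each, so no fold change is given for it. MRPL38 had 45 to 111 counts and MRPL46 had 172 to 300. These low values coincided with overlapping gene models. In GENCODE 29, 6 members shared 50% or more of the exon bases of their principal transcript with another gene on the same strand: MRPS24 (85.7%, with the readthrough gene URGCP-MRPS24), MRPL46 (71.1%), MRPL12 (68.2%), MRPL38 (67.8%), MRPS28 (55.4%) and MRPL53 (52.3%, with CCDC142). Of the 8 lowest members, 5 were among these 6, and of the 8 highest, 0 were. The median level was 3.21 FPKM for the 6 and 26.3 FPKM for the other 72. The genes overlapping MRPS24, MRPL46, MRPL12, MRPL38 and MRPS28 themselves held 0 to 13 counts per library, whereas CCDC142 held 384 to 598. MRPL12, the stalk protein of the large subunit, was the exception in level, at 36.4 FPKM. How reads on shared bases were counted was not tested, and the levels of these 6 are uncertain for that reason. In all, 37 members shared no exon base with another gene on either strand.

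**Figure D1:**
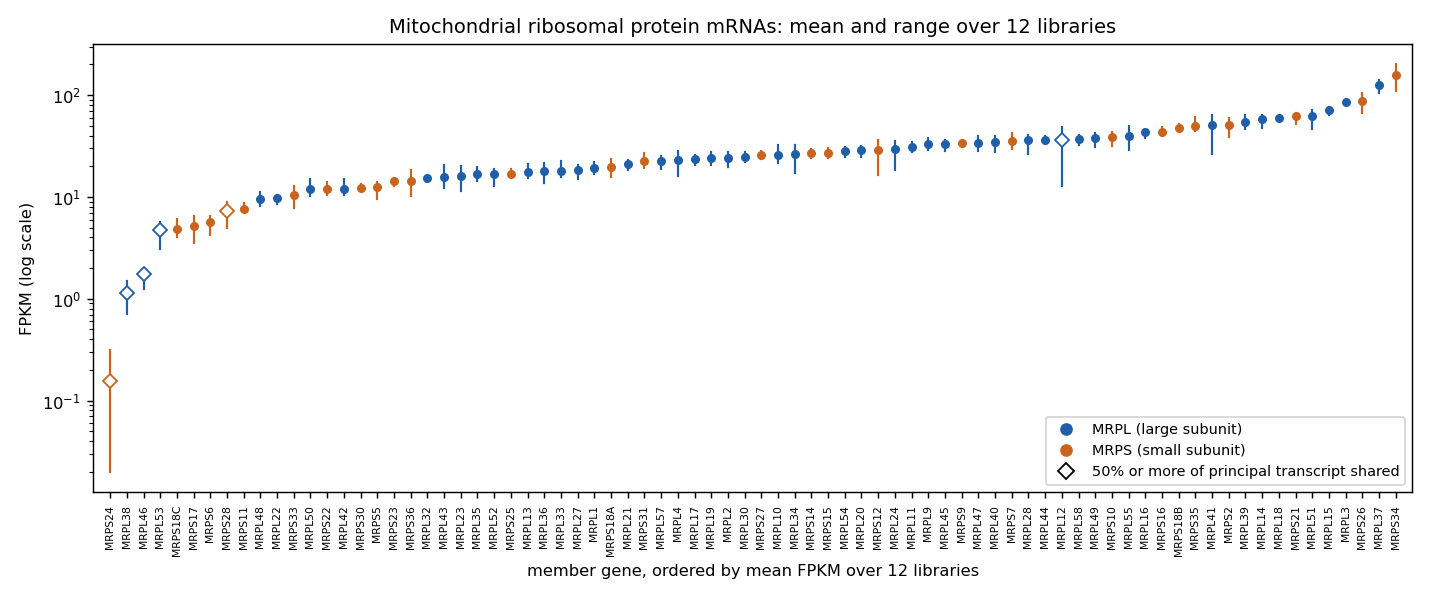
Mean FPKM (points, log scale) and range over the 12 libraries (lines) of each of the 78 members, ordered by mean, with large-subunit members in blue and small-subunit members in orange; open diamonds mark the 6 members sharing 50% or more of their principal transcript with another gene on the same strand. MRPS24 (0.157 FPKM; its lowest library is at 0 and is drawn at the base of its line) lies lowest and MRPS34 (156 FPKM) highest, and 5 of the 6 diamonds are among the 8 lowest.

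The pseudogenes with MRPL or MRPS names could share reads with the members, but their counts were small: together they came to 8.20 to 12.9 CPM (counts scaled to a common library size) per library, or 0.14 to 0.241% of the members' counts. The highest was MRPL45P2, at 6.65 CPM.

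Summed over the members, 0.522 to 0.584% of the counts of a library fell on the mitochondrial ribosomal protein genes. Large-subunit members came to 3586 ± 109 CPM (SD, n = 3) in DMSO, 3518 ± 208 in CEP, 3470 ± 61.7 in 4SU and 3442 ± 104 in CEP+4SU. Small-subunit members came to 2216 ± 101 CPM in DMSO, 2116 ± 121 in CEP, 2110 ± 25.6 in 4SU and 2112 ± 29.4 in CEP+4SU. Every treated group overlapped DMSO in both sums, and CEP replicate 2 was the lowest library in each (3279 and 1977 CPM). The log2 ratio of summed large-subunit to small-subunit counts was 0.68, 0.72 and 0.69 in the DMSO libraries, 0.74, 0.73 and 0.73 in CEP, 0.72, 0.71 and 0.72 in 4SU, and 0.72, 0.67 and 0.72 in CEP+4SU. The group means thus differed from DMSO by 0.0381 in CEP, 0.0225 in 4SU and 0.00895 in CEP+4SU, the first of these with every CEP library above every DMSO library. Taken as the difference of the median log2 CPM of each subunit, the same comparison had the opposite sign in all 3 (-0.114, -0.0419 and -0.0704), so its sign depended on the summary. As a score over the members the ratio has no test.

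**Figure D2:**
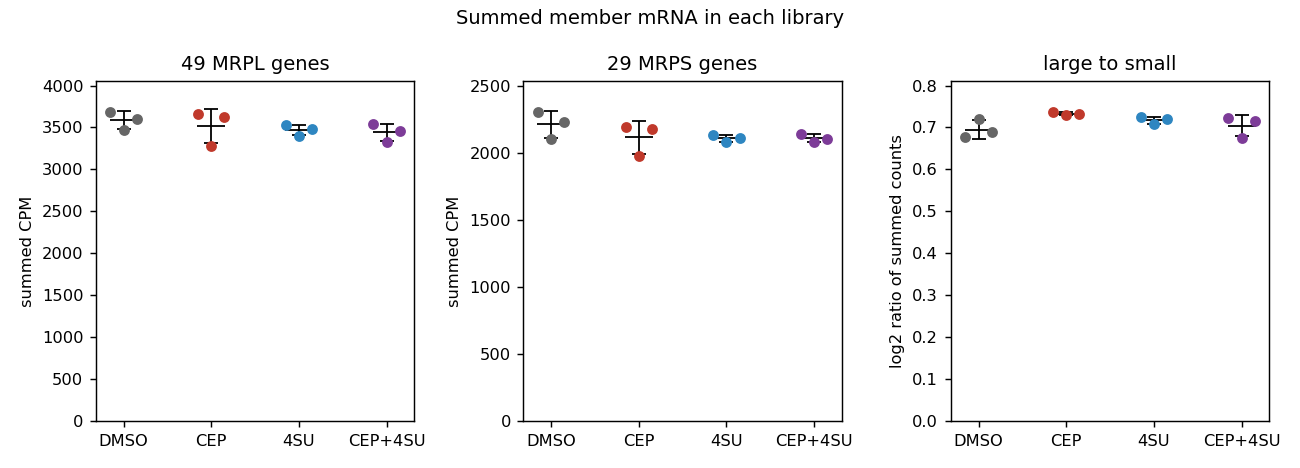
Summed CPM of the 49 large-subunit genes, summed CPM of the 29 small-subunit genes, and the log2 ratio of the summed counts, in each library (points) by group, with the mean and SD of 3 libraries in black. Sums span 3279 to 3685 CPM (large) and 1977 to 2306 CPM (small), and the log2 ratio spans 0.67 to 0.74.

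The first question was what the probe alone does to these messages. In CEP against DMSO, 0 of the 78 members passed an adjusted p of 0.05 in edgeR's quasi-likelihood test, where 0.0564% of the 17729 genes tested passed. DESeq2 called 0 of the 75 members to which it gave an adjusted p, where 1.83% of the 10763 genes with an adjusted p passed. At an unadjusted p of 0.05, 13 members passed (16.7%), 5 higher and 8 lower, against 18.6% of all genes (9.79% higher, 8.77% lower). These 13 were 6 of 49 large-subunit members (3 higher, 3 lower) and 7 of 29 small-subunit members (2 higher, 5 lower). The median log2 fold change was -0.028 for the large and -0.029 for the small subunit, against -0.0047 for all genes. Its sign turned without CEP replicate 2 (0.034 and 0.024) and with the gene length trend removed (0.054 and 0.036). Groups did not overlap in CPM for 7 members (8.97%), against 23.7% of all genes. Without CEP replicate 1 the count of members called was 7 (8.97%), where 6.61% of all genes passed, and without CEP replicate 2 it was 0.

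MRPS34 had the smallest p of the members. It was at 209, 189 and 223 CPM in DMSO and at 184, 121 and 166 CPM in CEP, so that all 3 CEP libraries lay below all 3 of DMSO. Its log2 fold change was -0.40 ± 0.12 (SE, n = 3 against 3; 95% interval -0.65 to -0.14, edgeR adjusted p = 0.173). It was -0.24 without CEP replicate 2 (adjusted p = 0.475) and -0.52 without CEP replicate 1 (adjusted p = 0.023). MRPL12, which recruits translation factors through the ribosomal stalk, was at 46.9, 40.7 and 51.1 CPM in DMSO and at 44.0, 13.4 and 33.9 CPM in CEP. Its log2 fold change of -0.60 ± 0.24 (adjusted p = 0.212) rested on CEP replicate 2: without that library it was -0.25, and without CEP replicate 1 it was -0.94 with an adjusted p of 0.0249.

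MRPL4, a large-subunit protein, was at 116, 97.7 and 107 CPM in DMSO and 102, 78.2 and 77.1 CPM in CEP (log2 fold change -0.32 ± 0.13, adjusted p = 0.214), with 1 CEP library inside the DMSO range. Without CEP replicate 1 its adjusted p was 0.0432. MRPS10 had the smallest p among members with a higher level in CEP. It was at 83.2, 67.8 and 74.2 CPM in DMSO and 82.9, 90.3 and 92.3 CPM in CEP, with the groups overlapping (0.24 ± 0.09, adjusted p = 0.195).

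The next comparison was 4-thiouridine alone. In 4SU against DMSO 0 of 78 members passed in edgeR, where 0.00564% of all genes passed. DESeq2 called 0 of the 55 members to which it gave an adjusted p, where 0.363% of the 5236 genes with an adjusted p passed. At an unadjusted p of 0.05, 2 members passed (2.56%), both lower, against 6.5% of all genes (2.78% higher, 3.72% lower). These were MRPL20 of the large subunit and MRPS34 of the small subunit. Groups did not overlap for 13 members (16.7%, against 17.9% of all genes). Of these, 12 lay below DMSO (15.4% of members, against 10.3% of all genes) and 1 above (1.28%, against 7.58%). Median log2 fold changes were -0.025 (large), -0.026 (small) and -0.0073 (all genes). With library sizes alone in place of the TMM (trimmed mean) scaling factors they were 0.030, 0.030 and 0.048. The sign of the medians thus depended on the scaling, while the medians of the members lay below that of all genes under both. The small-subunit median rose above that of all genes without DMSO replicate 1 (0.0058 against -0.0051) and without 4SU replicate 2 (0.0052 against -0.00047). Leaving out any other DMSO or 4SU library kept it below.

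MRPL20, a large-subunit protein, was at 88.5, 83.6 and 88.7 CPM in DMSO and at 77.9, 68.6 and 80.3 CPM in 4SU, with no overlap (log2 fold change -0.20 ± 0.08, adjusted p = 0.744). Without 4SU replicate 2 it was -0.13. MRPL37 was at 358, 331 and 330 CPM in DMSO and at 319, 289 and 310 CPM in 4SU, also without overlap (-0.15 ± 0.07, adjusted p = 0.77). It was -0.10 without 4SU replicate 2 and -0.09 with library sizes alone. MRPS16, a small-subunit protein mutated in an inherited respiratory chain disorder, was at 134, 120 and 138 CPM in DMSO and 114, 121 and 117 CPM in 4SU, with 1 library inside the DMSO range (-0.15 ± 0.07, adjusted p = 0.766; -0.10 with library sizes alone).

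Cells given both agents are the condition of the crosslinking experiment. In CEP+4SU against DMSO 1.64% of all genes passed an adjusted p of 0.05, and 0 of the 78 members did. DESeq2 called 4 of the 76 members to which it gave an adjusted p, MRPL23, MRPL43, MRPS34 and MRPS35. It called 9.96% of the 11454 genes with an adjusted p. At an unadjusted p of 0.05, 14 members passed (17.9%), 4 higher and 10 lower, against 21.4% of all genes (10.5% higher, 10.8% lower). By subunit these were 9 of 49 large (2 higher, 7 lower) and 5 of 29 small (2 higher, 3 lower). Groups did not overlap for 21 members (26.9%, against 28.7% of all genes), of which 16 were below DMSO (20.5%, against 14.6%) and 5 above (6.41%, against 14.1%). Median log2 fold changes were -0.025 (large), -0.010 (small) and 0.000066 (all genes). These medians turned positive with library sizes alone (0.0079, 0.023 and 0.032) and, for the members, with the length trend removed (0.019 and 0.023), and the large-subunit median was -0.0028 without CEP+4SU replicate 2. Without CEP+4SU replicate 1 the count of members called was 3 (3.85%), where 4.42% of all genes passed.

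MRPS34 again had the smallest p of the small subunit. Its CEP+4SU libraries were at 177, 133 and 153 CPM, all below the 3 DMSO libraries given above (log2 fold change -0.42 ± 0.12, 95% interval -0.68 to -0.17, edgeR adjusted p = 0.0724). MRPL43, a large-subunit protein, was at 74.8, 61.2 and 61.4 CPM in DMSO and 53.1, 44.2 and 52.2 CPM in CEP+4SU, without overlap (-0.40 ± 0.12, adjusted p = 0.0736). MRPL23, a protein at the peptide exit, was at 53.6, 51.6 and 55.9 CPM in DMSO and 47.5, 35.1 and 34.2 CPM in CEP+4SU, again without overlap (-0.47 ± 0.14, adjusted p = 0.0753). Without CEP+4SU replicate 1 the adjusted p was 0.0231 for MRPL23 and 0.0311 for MRPS34.

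MRPS35, a small-subunit protein, went against these in sign. It was at 93.7, 89.9 and 88.8 CPM in DMSO and 103, 123 and 107 CPM in CEP+4SU, so that all 3 treated libraries were above DMSO (0.29 ± 0.09, adjusted p = 0.0899). The CEP+4SU, CEP and 4SU comparisons share the same 3 DMSO libraries, and the values of 1 member in them are not independent. Beside its -0.42 in CEP+4SU, MRPS34 had -0.40 in CEP and -0.26 in 4SU, and MRPL23 had -0.07 and -0.13.

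Averaging over the other agent uses all 12 libraries for each agent. For CEP averaged over 4SU, 0 of 78 members passed an adjusted p of 0.05 in edgeR, against 0.276% of all genes. DESeq2 called 3 of 75 members (MRPL4, MRPS26 and MRPS34), against 14.6% of the 10072 genes to which it gave an adjusted p. At an unadjusted p of 0.05, 17 members passed (21.8%), 8 higher and 9 lower, against 24.3% of all genes (13.5% and 10.8%). MRPS34 (log2 fold change -0.28 ± 0.09, adjusted p = 0.0821), MRPL4 (-0.26 ± 0.09, adjusted p = 0.103) and MRPS26 (-0.25 ± 0.09, adjusted p = 0.117) had negative values. MRPL39 had a positive one (0.19 ± 0.07, adjusted p = 0.105). Leaving out CEP replicate 1 gave 9 called members, where 11.8% of all genes passed, and leaving out CEP+4SU replicate 1 gave 3, where 6.16% did. Without CEP replicate 2 and CEP+4SU replicate 2 together, the values of MRPS34, MRPL4, MRPS26 and MRPL39 were -0.16, -0.16, -0.15 and 0.12.

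For 4SU averaged over CEP, 0 of 78 members passed in edgeR, against 0.558% of all genes. DESeq2 called 0 of 77 members, against 2.62% of the 12836 genes to which it gave an adjusted p. At an unadjusted p of 0.05, 8 members passed (10.3%), 1 higher and 7 lower, against 12.6% of all genes (5.66% and 6.95%). The smallest p was that of MRPL37 (-0.17 ± 0.05, adjusted p = 0.158). The interaction term asks whether the response to one agent depends on the other. It gave 0 members in edgeR and DESeq2, and 0% of all genes passed in either. At an unadjusted p of 0.05, 1 member passed, MRPS25 (0.25 ± 0.11, adjusted p = 0.9998), against 2.63% of all genes.

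**Figure D3:**
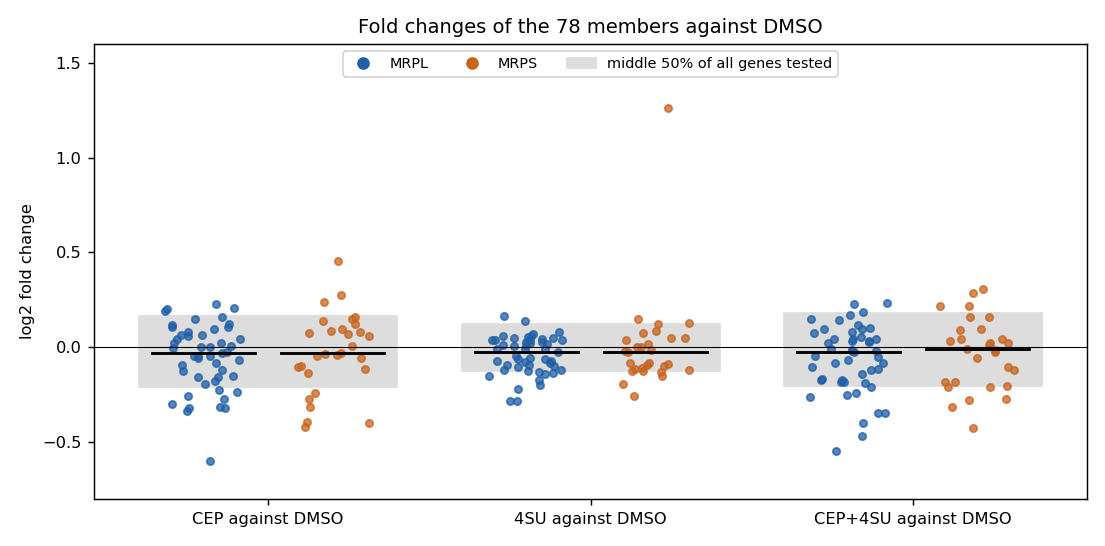
Log2 fold changes against DMSO of the 49 large-subunit (blue) and 29 small-subunit (orange) members in the 3 treated groups, each point a gene and each black line a median, over the middle 50% of all 17729 genes tested (grey). Medians are between -0.029 and -0.010, and the point above 1 with 4SU is MRPS24, which had 0 to 15 counts per library.

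The size of the differences that these data leave possible can be read from the 95% intervals. In the comparisons against DMSO the median half-width over the members was 0.211 on the log2 scale. The interval lay within 1.5-fold in either direction for 66 of 78 members in CEP, 75 in 4SU and 67 in CEP+4SU, and within 1 on the log2 scale for 76, 77 and 77. Over the 4 groups, the ratio of the highest to the lowest group mean CPM had a median of 1.13 and was under 1.5 for 76 of 78 members. The 2 exceptions were MRPS24, which was near 0, and MRPL12 (1.52). Replicates of CEP were the most spread, with a median coefficient of variation over members of 10.2%, against 6.12% in DMSO, 7.01% in 4SU and 7.82% in CEP+4SU.

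How the members differed among themselves went with their base composition. Across the 78 genes, Spearman's rho between the GC content of a gene's transcripts and its log2 fold change was -0.727 in CEP, -0.537 in 4SU and -0.739 in CEP+4SU, and -0.798 for CEP averaged over 4SU (-0.813 large, -0.807 small). Across all 17718 tested genes with a GC value the same figures were -0.573, -0.274, -0.514 and -0.602. Genes are not independent replicates and all points come from the same libraries, so these are descriptions. MRPS34 (63.6% GC), MRPL12 (64.6%), MRPL4 (63.2%), MRPS26 (63.4%) and MRPL23 (62.7%), with negative values, were GC-rich, and MRPS10 (41.6%), MRPS35 (42.0%) and MRPL39 (42.4%), with positive values, were GC-poor. Not all named members with negative values were GC-rich. Those with the smallest p for 4SU averaged over CEP, all negative there, were MRPS27 (44.8%), MRPS16 (48.3%), MRPL37 (53.45%) and MRPL20 (53.7%). With the GC trend of each library removed, the value of MRPS34 in CEP+4SU went from -0.42 to -0.14 (adjusted p = 0.419), that of MRPL23 from -0.47 to -0.20 (adjusted p = 0.36), that of MRPL43 from -0.40 to -0.22 (adjusted p = 0.223) and that of MRPS35 from 0.29 to 0.15 (adjusted p = 0.3). In CEP against DMSO, MRPS34 went from -0.40 to -0.11, MRPL4 from -0.32 to -0.04, MRPL12 from -0.60 to -0.32 and MRPS10 from 0.24 to 0.08. The part of GC content in the difference between groups was not tested further.

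Values of the other members fixed for their role follow. MRPL3, MRPL11 and MRPL44 of the large subunit had log2 fold changes of 0.08, -0.02 and 0.06 in CEP and 0.04, -0.01 and 0.05 in CEP+4SU. MRPL58, a peptide-release factor built into the large subunit, had 0.00 and 0.03 in these comparisons, and MRPL10 had -0.12 and -0.17. MRPS7, MRPS22 and MRPS27 of the small subunit had -0.10, 0.15 and 0.08 in CEP and -0.18, 0.16 and -0.06 in CEP+4SU. For 4SU averaged over CEP, MRPS27 had -0.13 (95% interval -0.24 to -0.03). MRPS12, the decoding-centre protein, was at 77.7, 68.3 and 71.3 CPM in DMSO and 71.7, 35.9 and 54.8 CPM in CEP (-0.42 ± 0.16, adjusted p = 0.203), again with its lowest value in CEP replicate 2. Without CEP replicate 1 it was -0.66 (adjusted p = 0.0211). The 3 MRPS18 paralogs, which take different places in the ribosome, had -0.04 (MRPS18A), -0.03 (MRPS18B) and 0.27 (MRPS18C) in CEP, with adjusted p-values of 0.884, 0.832 and 0.229. MRPS30 had 0.06 and MRPS36 had 0.16. In CEP+4SU, MRPS30 had -0.01, MRPS36 had 0.31 and MRPS16 had -0.18.

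The other genes of the pathway were read from lists. Of 5 mitochondrial ribosomal proteins with other names (DAP3, PTCD3, AURKAIP1, CHCHD1 and GADD45GIP1) 0 passed an adjusted p of 0.05 in any of the 6 comparisons. In these comparisons 0% to 1.64% of all genes passed. GADD45GIP1 came nearest in CEP+4SU (-0.52 ± 0.14, adjusted p = 0.0563). Of 28 assembly and ribosomal RNA modification factors 1 passed, DDX28, an RNA helicase of large-subunit assembly. It passed in CEP+4SU (1.64% of all genes passed) and for CEP averaged over 4SU (0.276% of all genes). It was at 42.0, 37.7 and 39.5 CPM in DMSO and at 28.8, 23.2 and 26.7 CPM in CEP+4SU, without overlap, and fell by 0.60 ± 0.10 on the log2 scale (adjusted p = 0.0153). For CEP averaged over 4SU it fell by 0.41 (adjusted p = 0.0171), a call that was lost with the GC trend removed (-0.27, adjusted p = 0.0642), with the length trend removed (adjusted p = 0.0524) and without DMSO replicate 1 (0.0849), DMSO replicate 3 (0.0595), CEP replicate 3 (0.0582) or 4SU replicate 3 (0.0563). Both DDX28 calls were lost with limma on log2(FPKM + 1) over genes above 0 in a library (adjusted p = 0.0892 in CEP+4SU, 0.109 for CEP averaged over 4SU). With 1 library left out the adjusted p in CEP+4SU was between 0.0127 and 0.0989, past the threshold only without CEP+4SU replicate 1, and its log2 fold change with the GC trend removed was -0.43 (adjusted p = 0.0168). Of 17 translation factors and message-handling genes 0 passed in any of the 6 comparisons. For comparison, the median log2 fold change of 83 tested cytoplasmic ribosomal protein genes was -0.094 in CEP, -0.13 in 4SU and -0.14 in CEP+4SU, and that of 80 tested respiratory chain genes was -0.094, -0.12 and -0.14. The difference between these lists and the members was not tested.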

How the data were processed

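Sequencing libraries of polyadenylated RNA from 12 HEK293T samples were aligned and counted by the authors. Per the labels and the submitters' processing notes, reads were aligned to GRCh38 with HISAT2 2.0.5 and counted per gene with featureCounts 1.5.0-p3, and the deposited tables hold raw counts and FPKM (fragments scaled by gene length and library depth) computed by the authors. Whether counting used strand is not given in the sources used here, so members that overlap a gene on the other strand cannot be told apart from it. The labels state the probe dose in a different unit in 1 place, and the dose stated here follows the series' design and the study's methods.

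Counts were tested with edgeR 4.0.16 (R 4.3.3), the quasi-likelihood test, TMM scaling, genes kept by filterByExpr (minimum count 10, minimum total 15), 1 fit over all 12 libraries and Benjamini-Hochberg adjustment over 17729 genes, threshold 0.05. SE is the fold change over the square root of F. CPM use TMM library sizes, and levels between genes use FPKM only. DESeq2 1.42.0 and limma 3.58.1 on log2(FPKM + 1) were alternatives. The fits were tested on simulated data. GC content and exons come from GENCODE 29, and promoters from RefSeq. Named members were the 2 with the smallest p per comparison and subunit, the 2 highest and 2 lowest per subunit by FPKM, and 16 fixed for their role. The members and lists were chosen with earlier results of these data known. The labels call the 3 libraries of a group replicates of 1 cell line, and p-values measure only the spread between these libraries. Intervals cover that spread only. Correlations between the deviations of same-numbered libraries of different groups were -0.0469 to 0.142, highest between CEP and CEP+4SU replicate 1. Those between differently numbered libraries were -0.158 to 0.0555. No pair of replicates agreed within sampling noise (mean chi-square per gene 4.52 to 24.9 between replicates).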

Additional observations from a re-analysis of the deposited data

How the results depend on the processing

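No member passed in edgeR with the main settings, and the count of members called changed with several choices. The share of all genes called under the same setting stands beside each count, except at the low ends of ranges. For DESeq2 the share is of the genes to which it gave an adjusted p. In CEP against DMSO the count was 5 without the low-count filter (1.86% of all genes), 6 with a replicate block (4.4%), and 0 to 7 with 1 library left out at a time (7 without CEP replicate 1, 6.61%). In CEP+4SU against DMSO it was 4 with DESeq2 (9.96%), 7 without the filter (3.46%), 7 with the replicate block (9.4%), 1 with the gene length trend removed (1.97%), 3 with the 6 libraries of the comparison alone (3.36%), and 0 to 3 with 1 library left out (3 without CEP+4SU replicate 1, 4.42%). For CEP averaged over 4SU it was 3 with DESeq2 (14.6%), 7 without the filter (4.06%), 8 with the replicate block (12.8%) and 0 to 9 with 1 library left out (9 without CEP replicate 1, 11.8%; 3 without CEP+4SU replicate 1, 6.16%), and for 4SU averaged over CEP it was 1 without the filter (0.873%) and 1 with the GC trend removed (3.71%). At an adjusted p of 0.5 the counts were 33, 35, 41 and 11 in these 4 comparisons, where 44.4%, 47%, 52.3% and 20.5% of all genes passed. In 4SU against DMSO and the interaction the count was 0 in all 20 and 25 alternatives, where at most 0.557% and 0.0421% of all genes passed. With DESeq2 in CEP against DMSO, calls went from 10 of 17729 genes (0.0564%) to 197 of the 10763 with an adjusted p (1.83%). Members stayed at 0. With the replicate block in 4SU averaged over CEP, calls over all genes went from 99 (0.558%) to 336 (1.9%), again with 0 members. At shares this small, 0 members called does not set the members apart from all genes. In the labels same-numbered libraries share only a number, so the block is no paired analysis. Whether such libraries were handled together was not tested. Leaving out CEP replicate 2 and CEP+4SU replicate 2 together, chosen after seeing the data, gave 0 in each comparison. There 0.0111% to 1.23% of all genes passed. The causes were not tested.

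The ratio of large-subunit to small-subunit messages differed from DMSO by -0.114 (CEP), -0.0419 (4SU) and -0.0704 (CEP+4SU) as a difference of median log2 CPM, and by 0.0788 (CEP) and 0.0563 (CEP+4SU) from summed FPKM. With 1 library left out it was 0.0287 to 0.0502, 0.0131 to 0.0346 and -0.000451 to 0.0235. Of 516 values of 24 named fold changes under the alternatives, 473 stayed on the same side of the threshold, 43 passed it and 0 changed sign. Those 24 were picked for the smallest p in these data, and the alternatives reuse the same libraries. A kept sign is therefore no support for them. Depth limits MRPS24 (0 to 15 counts per library) and MRPL38 (45 to 111).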
